A study of Mus musculus with 10 samples.

Results

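Called peaks in gene deserts, the long stretches of the mouse genome that hold no protein-coding gene, were described in 6 CUT&Tag peak lists from macrophages. A desert peak was an autosomal peak whose midpoint lay outside every protein-coding gene, more than 50 kb from both ends of each of them, and more than 1 Mb from the first and last peak of its chromosome. The rule used positions only, not peak strength. It gave 83042 desert peaks of 427705 peaks in all, of which 410642 were autosomal. By list there were 15432 desert peaks for NPM1 in sham-operated hearts, 11667 for NPM1 after infarction, 20568 for NPM1 in untreated cultured macrophages, 21302 for NPM1 with IL-4, 11064 for H3K4me3 in wild-type (WT) and 3009 for H3K4me3 in Npm1-knockout macrophages.

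CUT&Tag uses an antibody to bring a transposase to chromatin, which then cuts and tags the DNA nearby. The cardiac macrophages came from mouse hearts at day 3: WT after a sham operation (NPM1), WT after myocardial infarction (NPM1 and H3K4me3) and Npm1-cKO, a conditional knockout, after infarction (H3K4me3). The cultured cells were WT macrophages raised from bone marrow (BMDM) over 7 days in M-CSF at 50 ng/ml, left untreated or stimulated for 12 hours with IL-4 at 20 ng/ml, each with the NPM1 antibody. Each group had 1 library, so no difference between groups has a replicate check and none was tested. Of the 10 samples in the series, 4 from IL-4-treated BMDM (H3K4me3 and KDM5B, each in WT and knockout) were not analysed here. Not given in the sources used here were the driver of the Cre recombinase, the deleted part of Npm1, the age of the mice and any pooling of animals, and the deletion could not be checked from these lists.

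Gene deserts are poor in protein-coding sequence but can hold enhancers that act on distant genes, and many transcribe long noncoding RNAs (lncRNAs) and microRNAs. NPM1 (nucleophosmin) is an abundant nucleolar protein and histone chaperone that also binds chromatin. H3K4me3 is a histone mark best known from active promoters, where it covers the start of transcription, and it can also mark the starts of noncoding transcripts.

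Promoters of lncRNAs are among the annotated starts of transcription in deserts, and 4 are printed here as examples. They were chosen after their values were seen: 2 with high knockout H3K4me3, Morrbid as a lncRNA known in myeloid cells, and 1 with strong NPM1. Each is the RefSeq promoter of build GRCm38.p6, from 250 bases before to 50 after the annotated start, on the strand of the transcript, with CG dinucleotides in capitals.
Dubr: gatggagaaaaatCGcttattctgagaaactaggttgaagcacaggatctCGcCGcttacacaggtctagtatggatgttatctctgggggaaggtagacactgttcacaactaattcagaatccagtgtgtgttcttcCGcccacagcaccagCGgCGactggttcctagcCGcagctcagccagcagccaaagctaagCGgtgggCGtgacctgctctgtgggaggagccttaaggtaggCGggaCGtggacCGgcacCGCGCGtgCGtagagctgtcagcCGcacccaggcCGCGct
D130051D11Rik: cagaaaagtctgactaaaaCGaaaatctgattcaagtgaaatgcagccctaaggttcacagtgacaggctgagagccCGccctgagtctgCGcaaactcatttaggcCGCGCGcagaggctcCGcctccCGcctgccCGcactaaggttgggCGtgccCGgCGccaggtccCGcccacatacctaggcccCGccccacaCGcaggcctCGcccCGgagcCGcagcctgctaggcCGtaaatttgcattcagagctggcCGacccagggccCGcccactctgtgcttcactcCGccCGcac
Morrbid: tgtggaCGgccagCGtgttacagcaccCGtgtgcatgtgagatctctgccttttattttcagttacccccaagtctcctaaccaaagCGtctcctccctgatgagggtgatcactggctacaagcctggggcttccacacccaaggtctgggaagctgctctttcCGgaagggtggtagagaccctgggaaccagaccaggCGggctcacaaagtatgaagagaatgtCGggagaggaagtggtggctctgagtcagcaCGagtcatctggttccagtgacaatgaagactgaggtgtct
5031425F14Rik: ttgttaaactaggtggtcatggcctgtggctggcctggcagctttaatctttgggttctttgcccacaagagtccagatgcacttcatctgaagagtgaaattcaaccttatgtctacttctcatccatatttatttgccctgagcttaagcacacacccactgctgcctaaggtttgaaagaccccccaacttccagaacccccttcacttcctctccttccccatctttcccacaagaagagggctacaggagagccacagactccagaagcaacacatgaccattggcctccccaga
They lie at chr16:50732724-50733023 on the minus strand (Dubr), chr15:85634346-85634645 on the plus strand (D130051D11Rik), chr2:128429302-128429601 on the minus strand (Morrbid) and chr2:166447201-166447500 on the plus strand (5031425F14Rik). They hold 19, 23, 8 and 0 CG dinucleotides, in that order.

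The deserts covered 829 Mb in 2443 stretches. This was 35.1% of the 2365 Mb between the first and last peaks of the autosomes, less 1 Mb at either end. The median stretch was 129 kb and the longest was 4.44 Mb. Of the stretches, 2211 held a desert peak in at least 1 list and 232 in none. Depth enters every count below. The background pileup, the number of reads expected at a position as the peak values give it, was 1.29 in the sham, 1.31 in the untreated, 2.49 in the knockout H3K4me3, 2.92 in the WT H3K4me3, 3.03 in the infarct and 4.18 in the IL-4 library. A peak within 1 kb of a gene end was found at 2, 11, 0, 12, 9 and 12 of 12 macrophage marker genes in sham, infarct, untreated, IL-4, WT and knockout. Fibroblast markers had such a peak at 5 of 8 genes in the knockout list and at 0 to 2 in the others. Endothelial markers had one at 0 of 8 genes in sham and untreated, 3 in infarct, 5 in IL-4 and 4 in each H3K4me3 list. For cardiomyocyte, lymphocyte and neutrophil markers the numbers were 0 to 3 of 8 in each list. The part of these cell types in the desert results was not tested.

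Desert peaks made up very different shares of the lists. They were 27.6% (95% Wilson interval 27.2% to 27.9%) of autosomal peaks for NPM1 in sham hearts and 14.8% (14.5% to 15.0%) after infarction. In BMDM they were 40.1% (39.7% to 40.5%) of NPM1 peaks in untreated cells and 21.3% (21.1% to 21.6%) with IL-4. For H3K4me3 they were 15.3% (15.0% to 15.5%) in WT and 5.78% (5.58% to 5.98%) in knockout cells. These intervals, and those below, cover counting error only. The 2 lists of lowest background, sham and untreated, had the largest desert shares, and in these libraries depth and treatment cannot be told apart.

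From sham to infarct, the number of NPM1 desert peaks fell by 3765, a change of -24.4%, while the peaks elsewhere numbered 1.66 times those of sham. With IL-4 there were 734 more desert peaks than in untreated cells, a change of 3.57%, while the peaks elsewhere numbered 2.56 times as many. The direction of the IL-4 change turned under other settings: 14996 peaks against 16029 at more than 100 kb from genes, 11157 against 20568 with lists of equal length, and 7418 against 8973 away from all annotated genes. Strong peaks were those with a −log10 q of 5 or more, where q is the authors' false discovery rate of a peak. Of these, IL-4 had 2.24 times the desert peaks of untreated cells. Strong autosomal peaks numbered 22521 with IL-4 and 4845 in untreated cells. The desert share of strong peaks was thus lower with IL-4, 18.1% against 37.5%. In both pairs the background was higher in the treated library, 2.35 times for infarct and 3.19 times for IL-4. From the WT to the knockout H3K4me3 list the number fell by 8055, a change of -72.8%, and 0.800 times the peaks elsewhere, at 0.853 times the background. Strong desert peaks numbered 1459 in the knockout and 1188 in WT, in lists of 28395 and 16603 strong autosomal peaks. Their desert share was 5.14% in the knockout and 7.16% in WT, so the order of the shares was that of all called peaks.

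Density per Mb separates the number of peaks from the length of DNA. Deserts held 18.6 sham, 14.1 infarct, 24.8 untreated and 25.7 IL-4 NPM1 peaks per Mb, and the rest of the same spans held 25.6, 42.7, 19.3 and 49.8. For H3K4me3 the deserts held 13.3 peaks per Mb in WT and 3.63 in the knockout, against 38.9 and 31.2 in the rest. The ratio of desert to other density was 0.726 in sham, 0.329 in infarct, 1.28 in untreated and 0.515 in IL-4 NPM1, and 0.343 in WT and 0.116 in knockout H3K4me3. Untreated BMDM was the one list of the 6 with more peaks per Mb in deserts than elsewhere.

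Just outside the 50 kb limit, 45 to 50 kb from a gene, the densities were 26.4 (sham), 27.3 (infarct), 24.7 (untreated), 40.2 (IL-4), 23.9 (WT H3K4me3) and 12.5 (knockout H3K4me3) peaks per Mb. Just inside it, at 50 to 55 kb, they were 24.5, 26.7, 23.2, 39.6, 22.4 and 12.4. Each list was slightly denser just outside than just inside.

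Distance from genes told the lists apart. From 50 to 100 kb out to more than 1000 kb from the nearest gene, knockout H3K4me3 went from 8.38 to 0.472 peaks per Mb and WT H3K4me3 from 21.2 to 4.96. NPM1 went from 23.2 to 4.96 in infarct, from 35.2 to 16.9 with IL-4 and from 23.8 to 11.6 in sham. Untreated NPM1 went from 25.4 to 23.9 and was nearly level across the deserts. The infarct NPM1 and WT H3K4me3 libraries, which used different antibodies on cells of the same condition, had nearly the same densities from 250 kb outward: 10.4 and 10.6 at 250 to 500 kb, 6.05 and 6.18 at 500 to 1000 kb.

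**Figure D1:**
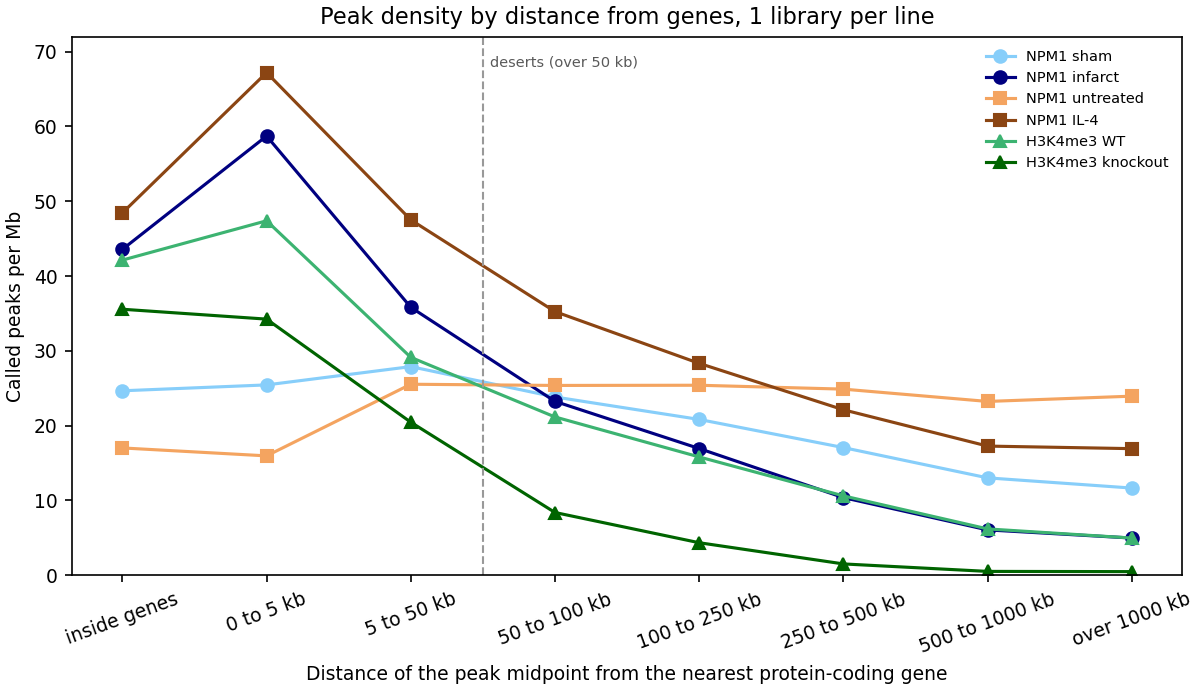
Called peaks per Mb (y axis) by the distance of the peak midpoint from the nearest protein-coding gene (x axis), 1 line per library, with deserts to the right of the dashed line. Untreated NPM1 stays between 23.2 and 25.4 peaks per Mb across the desert classes, while knockout H3K4me3 goes from 8.38 to 0.472.

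The size of the desert ordered the lists in the same way. In the 1079 deserts under 100 kb, knockout H3K4me3 had 15.5 peaks per Mb, and in the 68 deserts of 2 Mb or more it had 0.760, a ratio of 20.3. The same ratio was 5.04 for WT H3K4me3, 5.79 for infarct, 2.70 for IL-4, 2.40 for sham and 1.06 for untreated NPM1. Strong peaks, those with a −log10 q of 5 or more, gave ratios of 17.4, 5.85, 8.85, 2.66, 2.87 and 1.10 in the same order. Among strong peaks the knockout list led the WT list in small deserts, with 7.67 against 3.22 per Mb under 100 kb, but not in the largest, with 0.442 against 0.549.

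**Figure D2:**
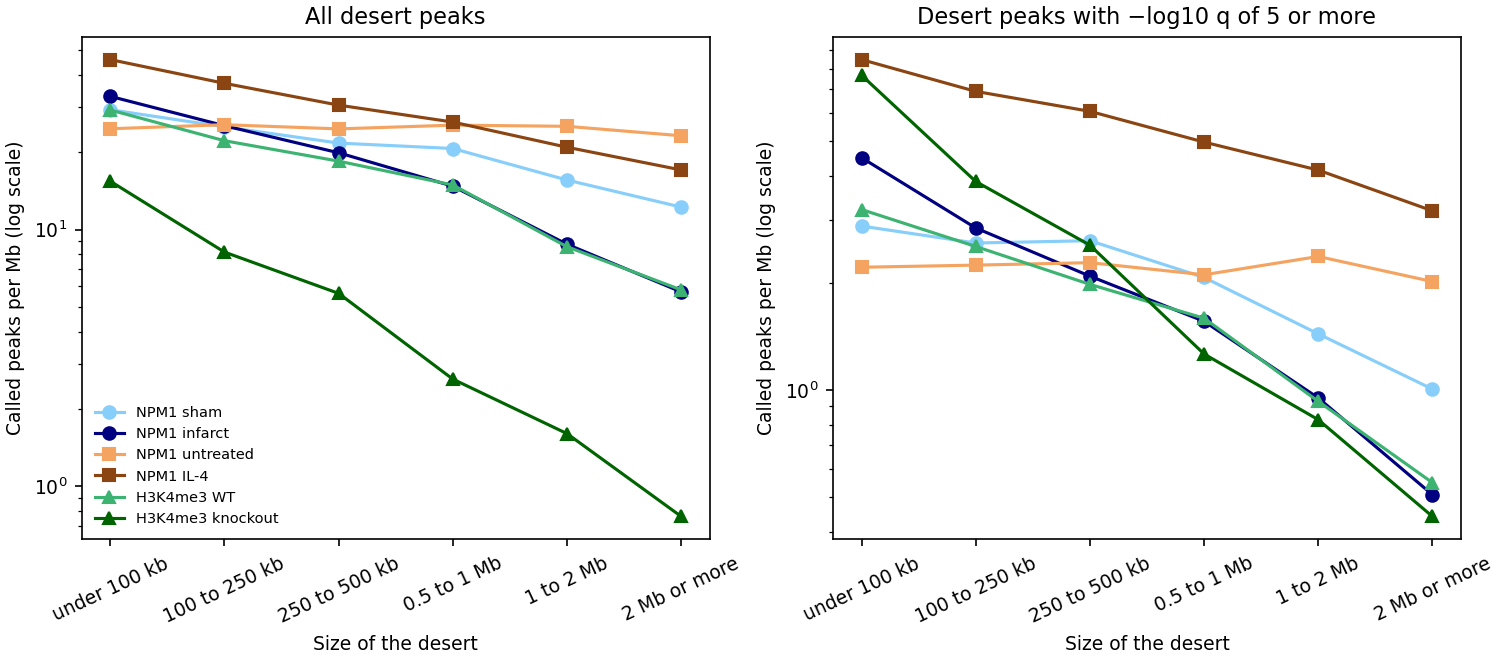
Called peaks per Mb on a log axis (y) by the size of the desert (x), for all desert peaks (left) and those with a −log10 q of 5 or more (right), 1 line per library. The knockout H3K4me3 line falls most steeply in both panels, and in the right panel it lies above the WT line in deserts under 500 kb.

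Within the 210 deserts of 1 Mb or more, untreated NPM1 had from 7 to 134 peaks per desert with a median of 39, and IL-4 from 8 to 95 with a median of 30.5. Sham had from 4 to 67 with a median of 23, infarct from 0 to 54 with a median of 12, and WT H3K4me3 from 1 to 49 with a median of 11. Knockout H3K4me3 had from 0 to 22 with a median of 1, and 83 of the 210 deserts had none. Peak density per desert ran most closely together in infarct NPM1 and WT H3K4me3, with a Spearman rho of 0.64 over the 210 deserts. It was 0.60 for sham and infarct, 0.56 for untreated and IL-4, 0.50 for the H3K4me3 pair, and 0.04 for untreated NPM1 and knockout H3K4me3. These are descriptions across deserts, which share base composition, repeats and mappability in all libraries.

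By chromosome, the median desert density was 18.2 peaks per Mb in sham, 14.1 in infarct, 24.2 in untreated and 25.6 in IL-4 NPM1, 13.8 in WT and 3.61 in knockout H3K4me3. Chromosome 3 had the lowest density in 4 lists: 15.9 in sham, 10.7 in infarct, 21.2 with IL-4 and 10.2 in WT H3K4me3.

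Desert peaks were narrow. Their median width was 234 bp in sham, 285 bp in infarct, 282 bp in untreated and 319 bp in IL-4 NPM1, close to the 233, 316, 263 and 329 bp of the peaks elsewhere. For H3K4me3 the desert medians were 260 bp in WT and 367 bp in knockout, below the 296 and 442 bp elsewhere. The smallest width in the lists was 200 bp, and 35.8% of sham desert peaks had just that width, near the 36.2% of sham peaks elsewhere. Wide peaks of 1 kb or more numbered 87 in sham, 160 in infarct, 330 in untreated, 591 in IL-4, 93 in WT and 277 in knockout. In the knockout they were 9.21% of desert peaks and 24.8% of the others. The desert shares were 0.564% in sham, 1.37% in infarct, 1.60% in untreated, 2.77% in IL-4 and 0.841% in WT. Elsewhere the shares were 0.621%, 2.94%, 1.37%, 3.38% and 4.94% in the same order.

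Most desert peaks were also weak. The median pileup at the summit was 8 reads in sham, 12 in infarct, 9 in untreated and 16 in IL-4, and 12 in WT and 14 in knockout H3K4me3. For the peaks elsewhere it was 8, 13, 9, 17, 14 and 21 in the same order. The median fold enrichment, the authors' value for each peak against its local background, was 3.91, 2.98, 3.57, 3.09, 3.30 and 3.93. For the peaks elsewhere it was 3.66, 2.98, 3.46, 2.94, 3.28 and 3.82, so the desert medians were near or above these. Strong peaks, those at or above 5 in −log10 q, were 1536 of the sham desert peaks (9.95%, against 10.2% of all autosomal peaks), 1274 of infarct (10.9% against 17.4%), 1819 of untreated (8.84% against 9.45%) and 4069 of IL-4 (19.1% against 22.5%). For H3K4me3 they were 1188 in WT (10.7% against 22.9%) and 1459 in knockout (48.5% against 54.5%). The WT H3K4me3 desert peaks thus fell short of their list's own share by more than 10 percentage points, and the sham and untreated ones hardly differed from theirs. The local background lay more than 1.5 times above the genome-wide one at 31.3% of untreated desert peaks, 24.5% of knockout H3K4me3 ones and at most 9.86% in the other 4 lists. Among the peaks elsewhere it did so at 29.4% in untreated, 54.2% in knockout H3K4me3 and from 9.24% to 26.9% in the other 4 lists.

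Sharing between lists was counted as an overlap of 1 bp or more. Of the sham desert peaks, 25.9% (25.2% to 26.6%) met an infarct peak, near the 29.1% of all autosomal sham peaks. In the other direction 33.4% of infarct desert peaks met a sham peak, above the 20.2% of all. Of untreated desert peaks 41.5% (40.9% to 42.2%) met an IL-4 peak, near the 42.9% of all, and of IL-4 desert peaks 39.1% met an untreated one, against 21.4% of all. So the 2 deeper NPM1 lists shared more of their desert peaks than of their peaks in general with the shallower list.

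Between tissues, 49.7% of infarct desert peaks met an IL-4 peak (50.8% of all), and 26.8% of IL-4 desert peaks met an infarct peak (39.7% of all). Of sham desert peaks 26.2% met an untreated peak (20.3% of all), and of untreated ones 19.2% met a sham peak (21.8% of all).

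The H3K4me3 pair overlapped less in deserts than elsewhere. Of knockout desert peaks 39.7% (37.9% to 41.4%) met a WT peak, against 47.9% of all, and of WT desert peaks 11.1% (10.6% to 11.7%) met a knockout peak, against 41.1% of all. Across antibodies in the infarcted WT heart, 31.8% (31.0% to 32.7%) of NPM1 desert peaks met H3K4me3, against 38.8% of all, and 33.9% of H3K4me3 desert peaks met NPM1, against 43.1% of all.

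**Figure D3:**
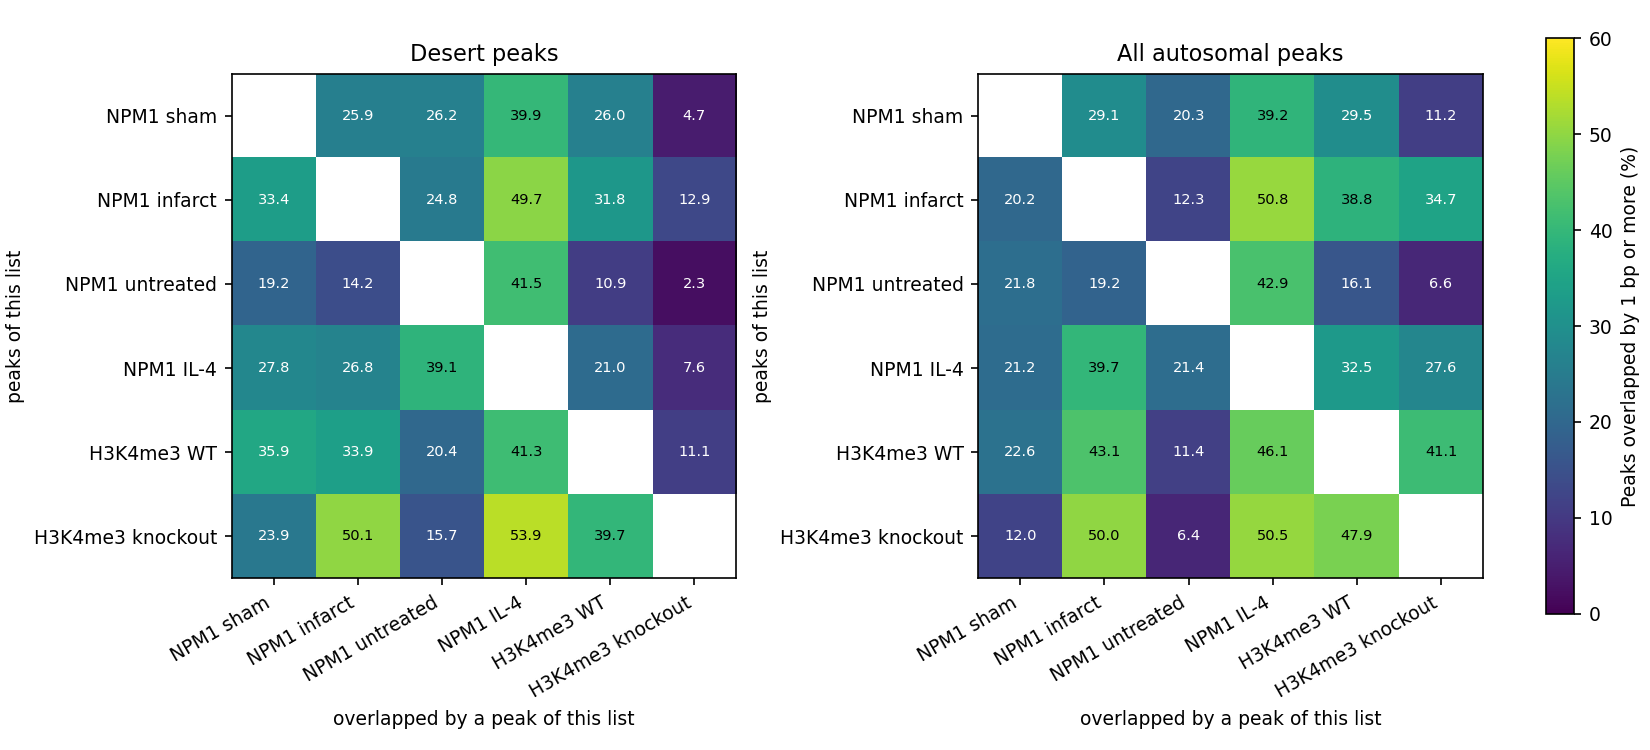
Share (%) of the peaks of the row's list that a peak of the column's list overlaps by 1 bp or more, for desert peaks (left) and all autosomal peaks (right). WT H3K4me3 peaks met by knockout H3K4me3 stand at 11.1% in deserts and 41.1% over all.

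Strong desert peaks were shared far more. Of sham desert peaks with a −log10 q of 5 or more, 74.0% met an infarct peak (79.1% of all such sham peaks), and of untreated ones 83.7% met an IL-4 peak (84.3% of all). Of strong infarct NPM1 desert peaks 78.2% met WT H3K4me3 (84.5% of all) but 54.4% met knockout H3K4me3 (83.4% of all). Of strong knockout H3K4me3 desert peaks 48.0% met WT (68.9% of all), and of strong WT ones 43.1% met knockout (85.0% of all).

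Against the sham heart the order was the other way. Of strong WT H3K4me3 desert peaks, 81.6% met an NPM1 peak of the sham heart, against 28.4% of all strong WT H3K4me3 peaks. Most strong WT H3K4me3 desert peaks were thus places where a library of another antibody and another condition had a peak too. Shared desert peaks were wider: sham peaks met by infarct had a median of 326 bp and the others 214 bp.

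The desert peaks of all lists together formed 51862 separate regions. Of these 35407 (68.3%) were in 1 list, 8946 in 2, 3838 in 3, 2163 in 4, 1141 in 5 and 367 (0.708%) in all 6. Regions of a single list numbered 10943 for untreated, 7608 for IL-4, 7156 for sham and 4186 for infarct NPM1, 4550 for WT and 964 for knockout H3K4me3. The commonest combination of lists was untreated with IL-4 NPM1, at 3900 regions. All 4 NPM1 lists shared 1893 regions, NPM1 lists alone held 39242 and H3K4me3 lists alone held 5668. The same counts over all autosomal regions are not given here, so whether these shares are particular to deserts cannot be told.

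The regions called in all 6 lists included the strongest desert peaks. The median width of these regions was 754 bp. Of the 367, 41 had a fold of 10 or more in every list, and 266 had a fold under 5 in at least 1. Desert peaks with a fold of 10 or more numbered 201 in sham, 70 in infarct, 71 in untreated, 119 in IL-4, 76 in WT and 168 in knockout H3K4me3. Of them 126, 68, 54, 99, 69 and 64 lay in regions called in all 6 lists. In infarct NPM1 and WT H3K4me3 these were nearly all of the highest desert peaks, and in knockout H3K4me3 they were not the majority. The matching counts for peaks outside deserts are not given here.

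The highest region of all lay between Gm40892 and Flrt2, a cell adhesion gene, at chr12:93576889-93577333 (mm10). Its fold was 40.4 in sham, 41.0 in infarct, 44.1 in untreated and 40.5 in IL-4 NPM1, and 37.8 in WT and 42.0 in knockout H3K4me3. The next, between Gpd2 and Galnt5 at chr2:57629361-57629849, had folds of 38.3, 37.1, 38.4, 38.5, 37.5 and 38.0 in the same order. Its peaks were 454 to 489 bp wide, so the lists of both antibodies agreed closely there in fold and in width. Further regions of this kind lay between Pcdh17 and Diaph3 (34.4 to 39.9), Creb3l1 and Phf21a (28.6 to 35.7), Nphp4 and Ajap1 (26.2 to 34.8) and Itga1 and Isl1 (25.8 to 31.3), with the range over the 6 lists in brackets.

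In each list the desert peak of the highest −log10 q was the same one, between Lrrc4c, a synaptic adhesion gene, and Iftap, at chr2:98666179-98667393 in the sham list. Its −log10 q was 2570 in sham, 5098 in infarct, 9428 in untreated and 6512 in IL-4 NPM1, 3347 in WT and 2994 in knockout H3K4me3. Its fold was 11.3, 13.4, 15.3, 13.4, 10.9 and 12.4. This stretch of mm10 is known for high signal in sequencing assays whatever the target. A second shared peak lay between Gm41099 and Gm2244 at chr14:19416885-19418312, with folds from 9.61 to 12.6, and another between Tcp10c and Tcte2 at chr17:13550658-13553169, with folds from 8.57 to 10.5.

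**Figure D4:**
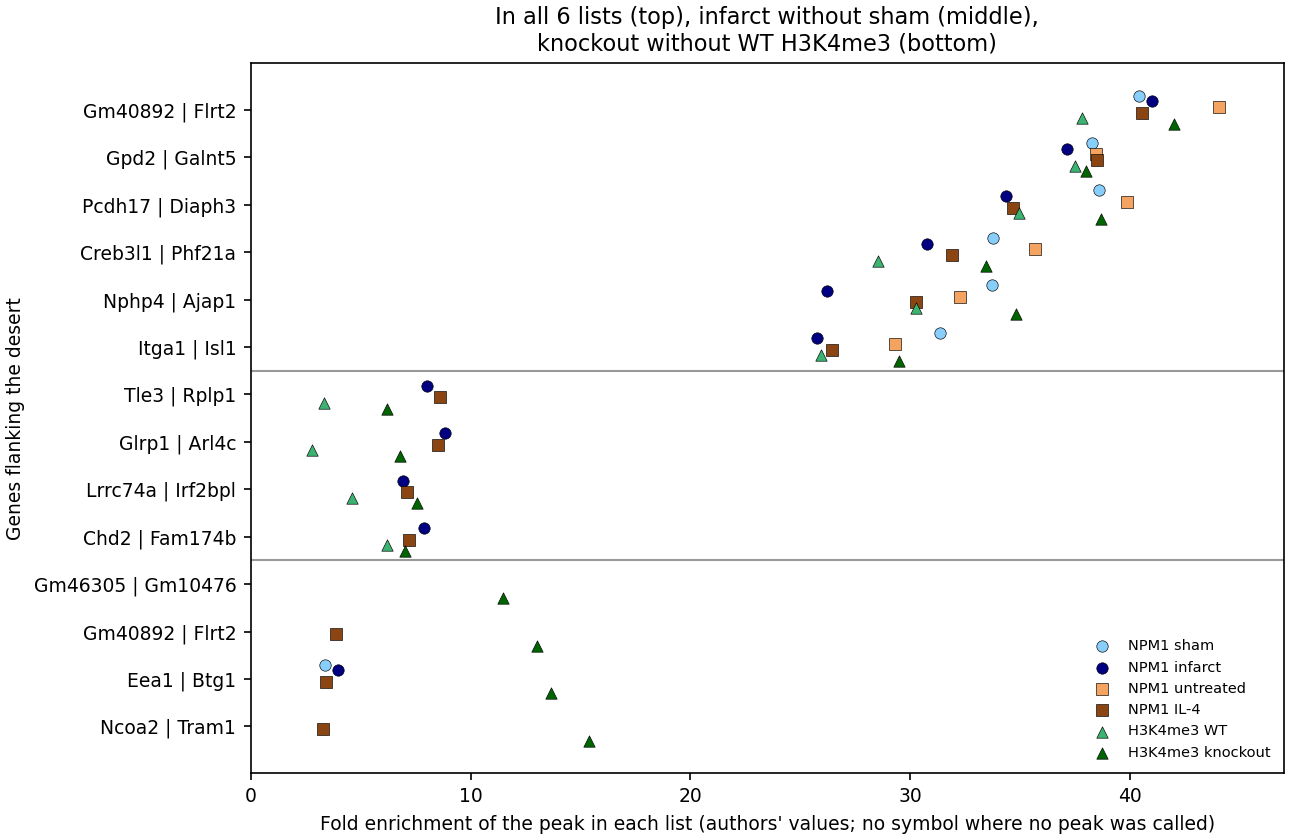
Fold enrichment (x axis, the authors' value) in each of the 6 lists for 14 named desert regions, labelled by their flanking genes (y axis); a missing symbol means that no peak was called. The 6 regions of all lists lie between 25.8 and 44.1, the infarct regions without sham carry IL-4 and H3K4me3 symbols, and the knockout regions without WT carry no other symbol above 3.97.

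Peaks with no counterpart within 5 kb in the compared list were common, in deserts as elsewhere. They were 9025 sham desert peaks (58.5%, against 46.1% of all autosomal sham peaks) with infarct as the compared list, 343 of them strong. In the other direction they were 5374 infarct desert peaks (46.1%, against 57.9% of all), 305 of them strong. In BMDM they were 7502 untreated (36.5%, against 32.9% of all) and 8478 IL-4 desert peaks (39.8%, against 63.0% of all), of which 222 and 1057 were strong. For H3K4me3 they were 1087 knockout (36.1%, against 27.0% of all) and 9197 WT desert peaks (83.1%, against 45.2% of all), of which 472 and 633 were strong. Infarct and IL-4 NPM1 thus had fewer such peaks in deserts than over the whole list, and the other 4 had more.

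The infarct desert peaks without a sham counterpart were led by one between Tle3, a transcriptional corepressor gene, and Rplp1, a ribosomal protein gene, at chr9:61702294-61703232. Its −log10 q was 49.7 and its fold 8.0. The IL-4 list had a fold of 8.60 there, the WT H3K4me3 list 3.35 and the knockout H3K4me3 list 6.20, and the sham and untreated lists had no peak. The next lay between Glrp1 and Arl4c (chr1:88587251-88588097, fold 8.81), between Lrrc74a and Irf2bpl (chr12:86824730-86825423, 6.91) and between Chd2, a chromatin remodeller gene, and Fam174b (chr7:73617756-73619049, 7.89). Each of these 4 had a peak in the IL-4 and both H3K4me3 lists and none in the sham and untreated lists. Of the 4 leading IL-4 peaks with no untreated counterpart, 3 had no sham peak and all had an infarct peak. One of them was the same Tle3 and Rplp1 peak, and another lay between Klf14 and Mkln1 (chr6:31216344-31217417, fold 8.12), where knockout H3K4me3 had a −log10 q of 92.0 at a fold of 4.63.

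The sham desert peaks without an infarct counterpart were led by one between Mdga2 and Rps29 (chr12:68543346-68543685, fold 10.6). The next lay between Grin3a and Cylc2 (chr4:50696974-50697259, 10.05), Amd2 and Hs3st5 (9.61) and Nlrp1b and Wscd1 (9.61). The −log10 q of these 4 ran from 15.1 to 18.2. The leading untreated peak without an IL-4 counterpart lay between Phlpp1, a phosphatase gene, and Bcl2, a survival gene, at chr1:106469723-106470081, with a fold of 10.9. The 4 leading peaks without a counterpart were 286 to 424 bp wide for sham and 694 to 1294 bp wide for infarct, and over all such peaks the median widths were 213 and 259 bp.

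The knockout H3K4me3 desert peaks without a WT counterpart were led by one between Gm46305 and Gm10476 at chr12:22029706-22031315, 1610 bp wide, with a fold of 11.5 and no peak in any other list. The next lay between Gm40892 and Flrt2 (chr12:93928501-93929343, fold 13.0), between Eea1 and Btg1, an antiproliferative gene (chr10:96160810-96161510, 13.7), and between Ncoa2 and Tram1 (chr1:13513711-13514305, 15.4). Where another list had a peak at these 4, its fold was at most 3.97. The WT peaks without a knockout counterpart were of another kind. The 4 leading ones lay between Cntn3 and Chl1 (fold 14.8), Impg1 and Htr1b (12.0), Etaa1 and Meis1 (11.0) and Gm3213 and Oprm1 (10.2). Each of them had a peak in all 4 NPM1 lists, and at the Meis1 region, chr11:18331747-18332378, the untreated NPM1 fold was 17.5.

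In the infarcted WT heart, the NPM1 desert peaks with no H3K4me3 peak within 5 kb numbered 5796 (49.7%, against 36.7% of all autosomal NPM1 peaks), of which 177 were strong. The leading 4 lay between Uaca and Tle3 (fold 7.44), LOC115489673 and Mrps28 (8.24), Perp and Tnfaip3, the gene of the NF-kappaB inhibitor A20 (chr10:18943191-18943935, 8.04), and Plk2 and Actbl2 (6.40). Each of these had an IL-4 NPM1 and a knockout H3K4me3 peak, and the sham and untreated lists had none. At the Tnfaip3 region the IL-4 fold was 7.41 and the knockout H3K4me3 fold 6.59. Conversely, 5406 WT H3K4me3 desert peaks (48.9%, against 30.3% of all) had no infarct NPM1 peak within 5 kb, 159 of them strong. The first pair of these by −log10 q had higher knockout H3K4me3 folds than WT folds, 19.9 against 8.37 between Gm9595 and Gm3325 and 9.30 against 7.59 between Dnajc1 and Commd3. Another of the 4 leading ones, between Mdga2 and Rps29, had a WT fold of 6.63, no knockout peak and a sham NPM1 fold of 10.6.

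Single deserts differed in which list filled them. The desert of 0.340 Mb between Klf14 and Mkln1, which holds Mir29a and Mir29b-1, had the most knockout H3K4me3 peaks, 43, of which 23 were strong. The WT H3K4me3 list had 24 peaks there with 4 strong, infarct NPM1 34 with 6 strong, IL-4 26 with 7 strong, sham 9 with 0 and untreated 3 with 1. The second most, 40 with 14 strong, lay between 9530057J20Rik and Gm15319, where WT had 47 with 10 strong, and the NPM1 lists had 49 in sham, 55 in infarct, 45 in untreated and 69 in IL-4. The desert between Irf2bp2, a corepressor gene of macrophages, and Tomm20 had 30 knockout, 24 WT, 33 infarct, 36 IL-4, 12 sham and 3 untreated peaks. That beside Zfp36l2, which encodes a protein that binds messenger RNA, had 29, 15, 30, 35, 12 and 2 in the same order. That between Cebpb, a myeloid transcription factor gene, and Ptpn1 had 26, 18, 27, 27, 9 and 2. Leaving out the one beside Gm15319, these are the 4 deserts with the most strong knockout H3K4me3 peaks, 15 to 23, so their excess over the 0 to 6 strong WT ones follows from the choice. Untreated NPM1 had 2 or 3 peaks in each of the 4.

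In the 4 longest deserts untreated NPM1 had the most peaks, 79 to 116 in each, and knockout H3K4me3 the fewest, 0 to 4. The 4.44 Mb between Pcdh20 and Pcdh9, protocadherin genes of the nervous system, had 94 untreated, 50 IL-4, 39 sham and 17 infarct NPM1 peaks, and 13 WT and 3 knockout H3K4me3 peaks. The desert with the most untreated peaks, the 3.83 Mb between Lrrc4c and Iftap, had 134, 87, 47, 25, 30 and 3 in the same order. The most peaks in sham and IL-4 NPM1, 67 and 95, lay in the desert before Dad1, where the T cell receptor alpha and delta segments lie. Antigen receptor segments are not counted as protein-coding genes. The 6 deserts with V segments, 7.61 Mb in all, held 172 sham, 104 infarct, 200 untreated and 224 IL-4 NPM1 peaks, and 99 WT and 14 knockout H3K4me3 peaks. The densities were 22.6, 13.7, 26.3, 29.4, 13.0 and 1.84 peaks per Mb, and the knockout one was farthest below that of all deserts, 3.63.

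The desert between Ube3a and Snurf on chromosome 7, an imprinted region, holds 194 genes of small nucleolar RNAs, with a median spacing of 1872 bp, 17 of them named Snord116. Within their extent of 0.542 Mb lay 54 sham, 46 infarct, 53 untreated and 77 IL-4 NPM1 peaks, and 45 WT and 12 knockout H3K4me3 peaks. That is 99.6 sham, 84.8 infarct, 97.7 untreated, 142 IL-4, 83.0 WT and 22.1 knockout peaks per Mb, each above the density of all deserts in that list, 18.6, 14.1, 24.8, 25.7, 13.3 and 3.63. Strong peaks numbered 5, 21, 16, 35, 6 and 2. This was the desert with the most strong peaks in the infarct, untreated and IL-4 lists. The copies are similar in sequence, so the place of a read among them is uncertain, and of these peaks 25 sham, 13 infarct, 13 untreated, 23 IL-4, 17 WT and 4 knockout ones overlapped a small nucleolar RNA gene itself.

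Genes other than protein-coding ones lay in 1717 of the 2443 deserts (70.3%), and lncRNA genes in 1264. The gene table places 7765 such genes there, 3442 of them lncRNAs, 2647 pseudogenes, 522 small nucleolar RNAs and 154 microRNAs. The extents of lncRNA genes took up 11.8% of desert bases. They held 13.6% of sham, 17.9% of infarct and 14.2% of IL-4 NPM1 desert peaks and 2057 of the 20568 untreated ones, and 17.3% of WT and 29.3% of knockout H3K4me3 ones. Knockout H3K4me3 thus stood highest over the share of bases and untreated NPM1 lay below it. Pseudogenes took up 1.05% of desert bases and held from 1.43% to 2.01% of the desert peaks.

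At the lncRNA starts, 3250 RefSeq promoters of 300 bp, from 2695 lncRNAs, lay in deserts. A strong peak overlapped 116 of them in knockout H3K4me3, 28 in WT H3K4me3, 54 in IL-4, 41 in infarct, 7 in sham and 5 in untreated NPM1. As shares these are 3.57%, 0.862%, 1.66%, 1.26%, 0.215% and 0.154%. Over all 11311 lncRNA promoters on autosomes the shares were 15.6%, 8.72%, 6.90%, 6.37%, 0.168% and 0.133%. The desert shares lay below those of all lncRNA promoters in 4 lists and just above them in sham and untreated NPM1, which rest on 7 and 5 promoters.

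Of the 116 desert promoters with strong knockout H3K4me3, 24 had strong WT H3K4me3 too and 92 (79.3%) did not, against 44.5% of all 1767 lncRNA promoters with strong knockout H3K4me3. No WT peak at all was found at 53 (45.7%, against 26.1% of all). Strong WT H3K4me3 alone was found at 4. Strong infarct NPM1 was found at 37 of the 116 (31.9%, against 39.3% of all), and these were 37 of its 41. Of those 41, 36 also had strong IL-4 NPM1 (87.8%, against 86.4% of all). Promoters with 10 or more CG dinucleotides, a count that is the same on both strands, were 6.40% of desert lncRNA promoters and 24.3% of lncRNA promoters elsewhere. Among those with strong knockout H3K4me3 they were 38.8% in deserts and 75.8% elsewhere.

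Dubr, a lncRNA gene between Ccdc54 and Cblb, had the knockout H3K4me3 peak of the highest −log10 q at its promoter. That was 169, with a fold of 11.2 over 1161 bp, and the WT value was 34.0 with a fold of 9.75 over 637 bp. NPM1 gave folds of 5.21 in infarct and 7.91 with IL-4 and no peak in sham or untreated cells. At D130051D11Rik, between Wnt7b and Ppara, all 6 lists had a peak, with folds of 3.91 in sham, 9.11 in infarct, 4.32 in untreated, 9.29 in IL-4, 7.17 in WT and 11.3 in knockout.

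Morrbid, a lncRNA known for its part in the lifespan of myeloid cells, lies beside Bcl2l11, the gene of the death factor Bim. Its promoter had a knockout H3K4me3 peak of 2492 bp at a fold of 5.12 and a −log10 q of 56.4. The WT list had no peak there, and of the NPM1 lists only IL-4 did, with a fold of 2.83. 5031425F14Rik, whose promoter has no CG dinucleotide, had the IL-4 and infarct NPM1 peaks of the highest −log10 q at a desert lncRNA promoter. The folds were 13.7 with IL-4, 9.63 in infarct and 6.35 in sham, and untreated cells had no peak. Its knockout H3K4me3 fold was 12.1, and WT had no peak. Promoters of few CG dinucleotides with H3K4me3 in both genotypes were found too, such as BC002059 (9 CG, folds of 8.48 in WT and 13.1 in the knockout) and Gm36486 (6 CG, 4.01 and 5.48).

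Mature microRNAs of 3 desert loci are printed because their hairpins lay near strong peaks, with the seed, bases 2 to 8, in capitals. The sequences are from RefSeq, build GRCm38.p6.
mmu-miR-29a-3p: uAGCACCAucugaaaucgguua
mmu-miR-29b-3p: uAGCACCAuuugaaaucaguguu
mmu-miR-125b-5p: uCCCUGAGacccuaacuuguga
mmu-miR-129-5p: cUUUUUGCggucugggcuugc
The first pair share the seed AGCACCA and come from neighbouring hairpins, Mir29a at chr6:31062660-31062747 and Mir29b-1 at chr6:31063023-31063093, both on the minus strand. miR-29 is known for restraining collagen messages in the heart, and miR-125b for its part in blood cell development.

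Of 135 microRNA hairpins in deserts, 10 had a strong knockout H3K4me3 peak within 5 kb. That is 7.41%, and over all 919 autosomal hairpins 35.1% had one. Infarct NPM1 had such a peak at 5 desert hairpins (3.70%, against 18.9% of all). WT H3K4me3 and IL-4 NPM1 had 3 each (2.22%, against 22.6% and 22.4%). Sham NPM1 had 4 (2.96%, against 1.74%) and untreated NPM1 0 (against 0.653%). Mir29a and Mir29b-1 had an infarct NPM1 peak with a fold of 4.21 and a knockout H3K4me3 peak with a fold of 4.30, both more than 3 kb away, and an IL-4 NPM1 peak with a fold of 3.20. Mir125b-1 had a knockout H3K4me3 peak 181 bp away with a fold of 4.82 and no peak of another list within 5 kb. Mir129-2, the source of the last sequence, lay under a knockout H3K4me3 peak with a fold of 5.73.

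The genes at the edge of a desert were taken from 4 lists, since such genes are candidates for control from within it. A gene was counted where a desert beside it held a peak, even where the gene on the other side was nearer to that peak. Of all 4010 protein-coding genes beside a desert, 79.1% had a sham, 77.8% an infarct, 76.0% an untreated and 84.2% an IL-4 NPM1 desert peak, 77.1% a WT and 42.1% a knockout H3K4me3 one. With strong peaks these shares were 37.0%, 32.9%, 37.6%, 57.1%, 33.2% and 30.1%.

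Myeloid transcription factors stood above these shares in 5 lists. Of 33 beside a desert, 20 had a strong desert peak in sham (60.6%), 25 in infarct (75.8%), 12 in untreated (36.4%), 27 in IL-4 (81.8%), 23 in WT (69.7%) and 26 in knockout (78.8%). With any peak they numbered 28 to 30 of 33 in every list, knockout included. These genes were chosen with earlier results of these data known, so their shares are not an independent check. Nor were they matched to all genes in desert size. Among the members with leading peaks, the deserts ran from 0.140 Mb in all beside Cebpb to 2.65 Mb beside Myc. The leading knockout H3K4me3 peaks lay beside Klf4 (chr4:55650869-55651752, fold 11.1, 118 kb from the gene), Jun (chr4:95160942-95162020, fold 9.28, 109 kb), Irf2bp2 (fold 7.77, 255 kb) and Cebpb (fold 5.19, 62.3 kb). Infarct NPM1 was led by Irf2bp2 (fold 5.68, 255 kb), Gata6, a factor of cavity macrophages (9.67, 203 kb), Cebpb (5.56, 69.5 kb) and Klf6 (9.73, 1089.5 kb). Meis1 and Gata6 were among the leading genes of untreated and IL-4 NPM1 and of WT H3K4me3, and Gata6 led in sham and WT. The Gata6 peak lay in a region of all 6 lists, with folds from 4.30 to 13.0. A peak is named here by the list member beside its desert, which need not be the nearest gene. The WT H3K4me3 peak beside Meis1 lay 548 kb from Meis1 and 378 kb from Etaa1, on the other side.

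Of 40 macrophage surface, cytokine and effector genes, only 7 lay beside a desert. Of these 7, 4 had a strong desert peak in sham (57.1%), 5 in infarct (71.4%), 4 in untreated (57.1%) and 6 in IL-4 (85.7%). For H3K4me3 there were 2 in WT (28.6%) and 4 in knockout (57.1%). Over all genes beside a desert the shares were 37.0%, 32.9%, 37.6%, 57.1%, 33.2% and 30.1% in the same order. The WT share was thus below that of all genes, and each share rests on few genes. Arg1, the arginase gene induced by IL-4, had a peak at chr10:25091674-25092837, 164 kb from the gene, with a sham fold of 8.24. At the same place the infarct fold was 5.41, the untreated 5.51, the IL-4 6.34, the WT H3K4me3 5.25 and the knockout H3K4me3 4.30, so this was a region of all 6 lists. Fn1, the fibronectin gene, had one 268 kb away with folds of 11.6 in sham, 8.10 in infarct, 8.11 in IL-4, 4.59 in WT and 9.17 in knockout. Ptgs2, the gene of cyclooxygenase 2, had a knockout H3K4me3 peak of 1148 bp 56.5 kb away, with a fold of 8.15, over an infarct NPM1 peak with a fold of 5.70.

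Developmental regulators and neuronal genes, best known from other tissues, had strong desert peaks too. Of 49 developmental regulators beside a desert, 34 had one in sham (69.4%), 25 in infarct (51.0%), 33 in untreated (67.3%), 44 in IL-4 (89.8%), 33 in WT (67.3%) and 15 in knockout (30.6%). Of 56 neuronal adhesion and synapse genes, 48, 35, 48, 52, 40 and 24 had one (85.7%, 62.5%, 85.7%, 92.9%, 71.4% and 42.9%). In every library both shares were above that of all genes beside a desert, and in sham, untreated and IL-4 also above that of the myeloid factors. The lists differ in the size of their deserts, which reach 7.07 Mb in all beside Pcdh7, and a longer desert has more room for a peak. In the knockout the developmental share, 30.6%, was near that of all genes, the neuronal share was 42.9% and the myeloid share was 78.8%.

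**Figure D5:**
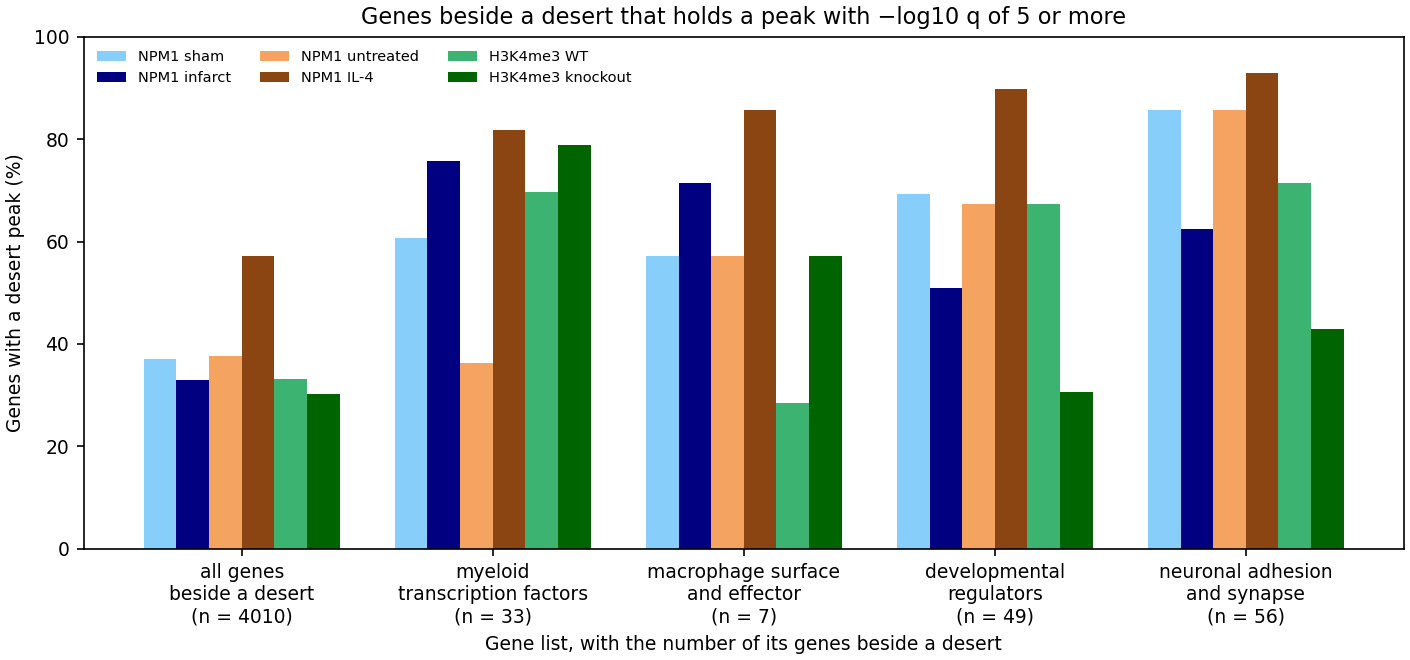
Share (%) of the genes beside a desert (y axis) whose desert holds a peak with a −log10 q of 5 or more, by gene list (x axis, with n), 1 bar per library. Knockout H3K4me3 stands at 78.8% for myeloid transcription factors, 42.9% for neuronal genes and 30.6% for developmental regulators, against 30.1% for all genes. The gene lists were chosen with earlier results of these data known and were not matched for desert size.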

How the data were processed

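The data were peak lists of 6 mouse macrophage libraries, made by CUT&Tag with a commercial transposase kit per the labels' protocols. The submitters' processing notes name MACS2 2.2.7.1, bcl2fastq 2.17, deepTools and Bowtie2, and build mm10. Not given in the sources used here: settings, handling of duplicates, control libraries, spike-in. Each peak in the deposited lists has a score, a fold (a ratio to the local background), a −log10 p and a −log10 q beside its position. The smallest −log10 p was 2.01. Totals of reads are unknown, so the pileup and background were solved from the deposited fold and −log10 p, within 0.001, and the most frequent background was taken. That depth limits which weak peaks can be called.

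Genes were the 21887 protein-coding genes of the GRCm38.p6 table, which gives neither strand nor transcripts, so features within a gene were not separated. A desert ran between neighbouring genes less 50 kb at either side. Regions were merged over the 6 lists, and overlaps of 1 bp or more were counted. A −log10 q of 5 marked strong peaks. No test was made, since each group had 1 library. Peaks named were the 4 highest by −log10 q in each list, over 100 kb apart, the same without a peak of the compared list within 5 kb, the 6 regions of all lists with the highest lowest fold, the 4 deserts with the most peaks, and the leading members of each gene list. Promoters were named after their values were seen. Some named regions and members are not reported here. The members and lists were chosen with earlier results of these data known. Intervals are 95% Wilson intervals. Alternatives were other distances, all annotated genes, stricter q, equal list lengths, stitched peaks and reciprocal overlap. Python 3.11.15, numpy 2.4.6, pandas 2.3.3, scipy 1.17.1 and matplotlib 3.10.9 were used, and the scripts were first tested on simulated data.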

Additional observations from a re-analysis of the deposited data

Results flagged for a closer look

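The NPM1 lists of the 2 settings differed in the sign of the change in the number of desert peaks, as counted by the main rule. The count of infarct minus sham was -3765 and that of IL-4 minus untreated was 734. At more than 100 kb from genes, with lists of equal length and with all annotated genes, both changes were negative. Each setting has 1 library per condition, and the difference between the 2 changes was not tested.

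Deserts of the X chromosome, which the comparisons leave out, also held peaks. There were 558 in sham, 266 in infarct, 1905 in untreated and 1247 in IL-4 NPM1, and 167 in WT and 68 in knockout H3K4me3, in 267 deserts of 74.2 Mb. Relative to the autosomal desert density of the same list, these were ratios of 0.404, 0.255, 1.03, 0.654, 0.169 and 0.252.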

How the results depend on the processing

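No difference of desert share changed its sign under the alternatives run. The number of desert peaks did for IL-4 against untreated: 14996 and 16029 at 100 kb, 11157 and 20568 with equal list lengths, and 7418 and 8973 with all annotated genes. Of 78 values of the main comparisons, 32 moved by less than counting error and 46 by more. The desert share of infarct minus sham was -14.4 percentage points with a distance of 25 kb, -10.4 with 100 kb, -14.1 with q of 0.05 or less, -13.5 with equal list lengths, -5.73 with all annotated genes and -12.3 with peaks stitched within 1 kb. That of IL-4 minus untreated was -19.9 with 25 kb, -16.3 with 100 kb, -19.4 with q of 0.05 or less and -10.1 with all annotated genes. That of knockout minus WT H3K4me3 was -10.8 with 25 kb, -7.16 with 100 kb, -3.43 with all annotated genes and -10.7 with stitched peaks. Sharing of sham with infarct was 26.7% with 25 kb, 24.5% with 100 kb, 24.6% with q of 0.05 or less, 21.5% with equal lengths, 23.9% with all annotated genes and 17.7% with a reciprocal overlap of 50%. Sharing of untreated with IL-4 was 43.6% with q of 0.05 or less, 29.7% with equal lengths, 42.6% with stitched peaks and 25.9% with reciprocal overlap. Sharing of knockout with WT H3K4me3 was 34.7% with equal lengths, 45.4% with all annotated genes, 43.6% with stitched peaks and 22.6% with reciprocal overlap. Sharing of infarct NPM1 with WT H3K4me3 was 36.6% with q of 0.05 or less, 34.3% with equal lengths and 22.1% with reciprocal overlap. A further 3 alternatives were added after seeing the data. With a −log10 q of 5 or more throughout, the 3 differences of desert share were -17.5 (infarct), -19.5 (IL-4) and -2.02 (knockout) points, and the 4 shares above were 36.9%, 54.8%, 23.4% and 44.0%. With that threshold in the first list only they were 74.0%, 83.7%, 48.0% and 78.2%. Without regions of all 6 lists they were 24.0%, 40.4%, 31.2% and 29.6%. With all annotated genes the knockout had 412 desert peaks. The cause of these moves was not tested. No paired analysis was possible because each group has 1 library. Depth limits all counts, since a peak missing from a list may be one that could not be called there.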
